A study of Mus musculus with 464 samples.

Results

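The genes described here are 50 mouse genes of mitosis and of the G2/M phase, the part of the cell cycle that leads into division. They were taken by name from a table of 21973 genes, and all 50 of the 50 names were found. They were described across single cells of the mouse embryonic stem cell line R1 that had been turned toward neural fates. The labels give 1 group for all samples, each of which is 1 cell: R1 cells kept with 15% serum replacement and 1000 U/ml LIF, made into embryoid bodies over 48 hours by the hanging drop method, and then cultured for 4 days with retinoic acid at a stated 0.5 mM, with the medium renewed each day. No genetic change and no untreated control are named, and R1 is a single line. Separate cultures are not named either, so the cells count as 1 sample. Differences between cells are given by size, with no p-value, and the 95% intervals (exact Clopper-Pearson) cover counting error at most.

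To divide, a cell first copies its DNA in S phase and then enters mitosis when the kinase Cdk1, bound to a cyclin, is switched on. Chromosomes condense, kinetochores attach them to the spindle, a checkpoint holds the cell until all are attached, and the anaphase-promoting complex then marks cyclin B and other proteins for destruction. Most genes of this programme are switched on late in the cycle, through a repressor and activator complex that reads a short promoter element called CHR, often beside CCAAT boxes. Neural progenitors divide, whereas neurons have left the cycle for good.

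The promoters of these genes share letters that the choice of genes did not use. RefSeq promoter windows on GRCm38.p6, from 250 bases before to 50 bases after a gene's start, were found for 43 of the 50 genes. The CHR element was searched as the letters TTTGAA and as the letters TTTAAA on both strands. It was in a window of 36 of the 43 (83.7%), against 21.96% of 8710 genes that at least 10% of the cells expressed and 30.6% of all 27025 genes with a window. CCAAT, on either strand, was in 33 of 43 (76.7%), against 43.995% of the detected genes and 41.1% of all. Both elements were in 30 of 43 (69.8%), against 9.31% and 12.2%. Within the 100 bases before the start alone, both were in 13 of 43 (30.2%), against 1.68% of the detected genes. A match is a description of the letters and not a binding site. Genes with several starts have several windows, and a match was counted wherever it lay, whether or not it touched the other element.

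The 100 bases before the start are shown 5′ to 3′ on the gene's own strand for genes on which the results below turn. The first 8 are genes whose mean level was at least 2-fold lower in neurons with few progenitor markers than in progenitors, from 3.06-fold for Top2a to 19.01-fold for Cdc20. Of these, 6 hold both elements in this stretch, while Birc5 (4.84-fold lower) and Anln (7.56-fold lower) hold neither. The genes shown are a selection made by no fixed rule, so this is not a share of the lower genes. Of all genes with a window, 13 of 43 hold both there. Whether the elements go with being lower was not tested. The last 3 are genes that were less than 2-fold lower there. Capitals mark the letters of the 2 elements as read on this strand, so a CHR element on the other strand can appear as TTCAAA, and a CCAAT box on the other strand appears as ATTGG.
Cdc20: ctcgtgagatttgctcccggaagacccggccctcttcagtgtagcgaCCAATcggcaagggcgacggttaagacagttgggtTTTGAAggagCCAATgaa
Ccnb1: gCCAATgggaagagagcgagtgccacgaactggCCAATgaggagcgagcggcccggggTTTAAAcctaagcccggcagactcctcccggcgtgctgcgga
Plk1: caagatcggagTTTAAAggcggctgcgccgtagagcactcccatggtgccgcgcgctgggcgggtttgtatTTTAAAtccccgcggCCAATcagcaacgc
Ube2c: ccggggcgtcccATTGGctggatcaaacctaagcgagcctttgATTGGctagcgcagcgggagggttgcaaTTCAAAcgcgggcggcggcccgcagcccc
Cdk1: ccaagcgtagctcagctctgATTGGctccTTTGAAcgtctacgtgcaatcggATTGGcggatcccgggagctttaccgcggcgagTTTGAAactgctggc
Top2a: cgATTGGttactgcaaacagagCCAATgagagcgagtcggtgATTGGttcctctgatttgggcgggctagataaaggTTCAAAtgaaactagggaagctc
Birc5: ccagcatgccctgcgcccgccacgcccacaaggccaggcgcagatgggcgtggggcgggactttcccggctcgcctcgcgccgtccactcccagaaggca
Anln: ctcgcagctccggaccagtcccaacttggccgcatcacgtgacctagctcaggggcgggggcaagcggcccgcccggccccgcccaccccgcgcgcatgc
Bub3: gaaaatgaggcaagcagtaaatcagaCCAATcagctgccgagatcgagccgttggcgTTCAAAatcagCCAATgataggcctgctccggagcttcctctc
Ckap5: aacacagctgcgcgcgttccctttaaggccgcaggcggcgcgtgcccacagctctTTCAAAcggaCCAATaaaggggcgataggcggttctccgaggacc
Rangap1: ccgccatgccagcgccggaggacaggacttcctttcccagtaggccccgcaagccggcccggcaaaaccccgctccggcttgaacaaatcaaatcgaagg
These lie at chr4:118437344-118437443 on the minus strand for Cdc20, chr13:100786487-100786586 (minus) for Ccnb1, chr7:122159335-122159434 (plus) for Plk1 and chr2:164769829-164769928 (plus) for Ube2c. Cdk1 is at chr10:69352913-69353012 (minus), Top2a at chr11:99024190-99024289 (minus), Birc5 at chr11:117849137-117849236 (plus), Anln at chr9:22389207-22389306 (minus), the first of 2 Bub3 windows at chr7:131560270-131560369 (plus), Ckap5 at chr2:91526662-91526761 (plus) and Rangap1 at chr15:81729920-81730019 (minus). In the Cdc20 stretch the CHR letters begin 18 bases before the start and in Cdk1 the nearer ones begin 15 bases before it. Bub3 and Ckap5 hold both elements in this stretch as well, and Rangap1 holds neither there.

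Cells were put in marker states by counting markers at 5 TPM or more. TPM is a share of a cell's transcripts corrected for gene length, so levels of different genes can be set side by side. After cells with fewer than 2000 genes above 0 or over 20% mitochondrial transcripts were left out, all but 6 columns remained. The progenitor state held 87 cells, the proneural state (neural cells with genes such as Neurog2 and Dll1 that precede neurons) 27.9% of the cells kept, the neuron state 25.8% and the endoderm state 64 cells. A further 56 cells passed the endoderm cut and a neural cut and were kept apart as mixed, and 5 passed none. Each state was cut on its own markers, so their counts describe the states and do not test their names. A median of 11 of 12 neuron markers were present in neuron-state cells, 9 of 10 endoderm markers in endoderm-state cells and 7 of 10 progenitor markers in progenitor-state cells. The endoderm state also held pluripotency genes in part, since a median of 2 of 6 were present, and these were Dppa5a and Zfp42, while the defining Pou5f1 had a mean of 0.446 TPM and Nanog was at 0 there. The states are ranges of a count: 97 cells lay within 1 marker of the progenitor cut, 69 of the neuron cut and 19 of the endoderm cut, and the proneural cut had the most cells near it. These counts cover all kept cells, and some of those cells were placed by another cut. They are therefore not counts of cells near a change of state. Neuron-state cells kept a median of 5 of 10 progenitor markers, so the state is not made up of mature neurons alone. They also held a median of 6 of 10 proneural markers, as did proneural-state cells. Proneural-state cells held a median of 7 of 10 progenitor markers, the same as progenitor-state cells. The neural states thus overlap in their markers and are not separate stages.

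Sequencing depth is unknown, because TPM keeps none. The median number of genes above 0 was 6014 in the progenitor, 6828.5 in the proneural, 7015.5 in the neuron, 5982 in the endoderm and 7991.5 in the mixed state, and the level of 12 housekeeping genes (median log2(TPM + 1)) lay between 8.47 and 8.57 in the 4 unmixed states. Column names fall into 2 sets of nearly equal size. Between the sets, 55 pairs of columns were near copies (Pearson r of 0.946 to 0.99, against at most 0.917 for any other 2 columns) and were read as repeat measurements. Values over distinct cells leave out 1 column of each pair. Other counts, shares, intervals and correlations over cells treat every kept column as a cell, with both columns of a pair included. If the pairs are repeats, those intervals are too narrow even for counting error. Doublets were not called.

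Cells with most of the 50 genes and cells with few of them were present in every state, in different proportions. Division itself was not measured. Within a state the level of the 50 genes also followed the number of genes above 0, with a Spearman correlation from 0.32 in proneural to 0.59 in endoderm cells, and the part of this in the result was not tested. A gene was called detected at 1 TPM or more. In the progenitor state a cell expressed a median of 46 of the 50 genes (quartiles 37 and 48, lowest 7, highest 50). In the proneural state the median was also 46 (35 and 49, from 7 to 50). In the neuron state it was 37 (16.25 and 47.75, from 7 to 50), and in the endoderm state 18 (15 and 34.25, from 4 to 50). The ranges of the states overlap almost whole, and what differs is how many cells sit at each end. At least 25 of the genes were detected in 89.7% of progenitor cells (95% interval 81.3 to 95.2), 82.03% of proneural cells (74.3 to 88.3), 58.5% of neuron cells (49.04 to 67.5) and 31.3% of endoderm cells (20.2 to 44.1).

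**Figure D1:**
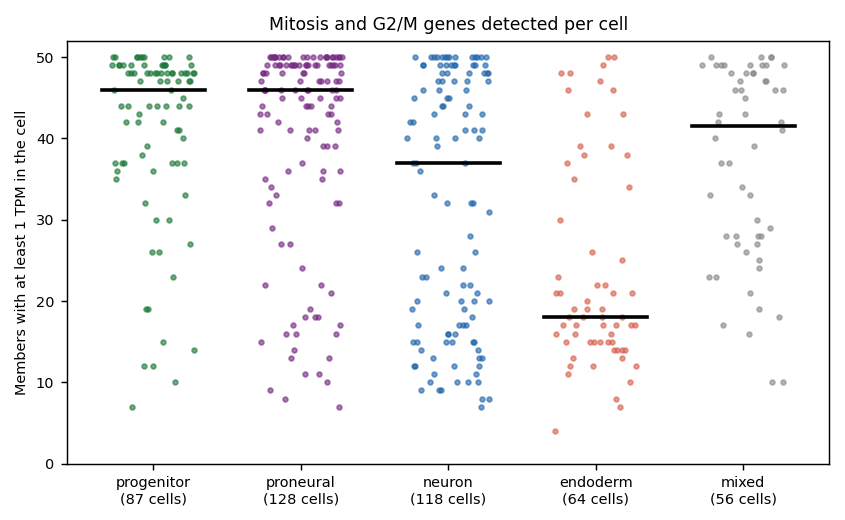
Number of the 50 mitosis and G2/M genes with at least 1 TPM in each cell (vertical axis), by marker state (horizontal axis); each point is a cell, spread sideways at random, and the bar is the median. Medians are 46, 46, 37, 18 and 41.5 from left to right, and most neuron-state cells sit in an upper or a lower band.

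Most cells of the neuron state had either nearly the whole programme or little of it. Of its cells, 56 had 40 or more of the genes and 41 had 20 or fewer, against 60 and 8 of 87 progenitor cells and 10 and 37 of 64 endoderm cells. All 50 genes were detected in 10 progenitor, 23 proneural, 14 neuron and 2 endoderm cells. The median neuron-state count was 26 in column set 1 and 40 in set 2, so its middle moves with the set. The medians of the other states were 47.5 and 44 for progenitors, 45 and 46 for proneural cells and 20 and 17 for endoderm cells.

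**Figure D2:**
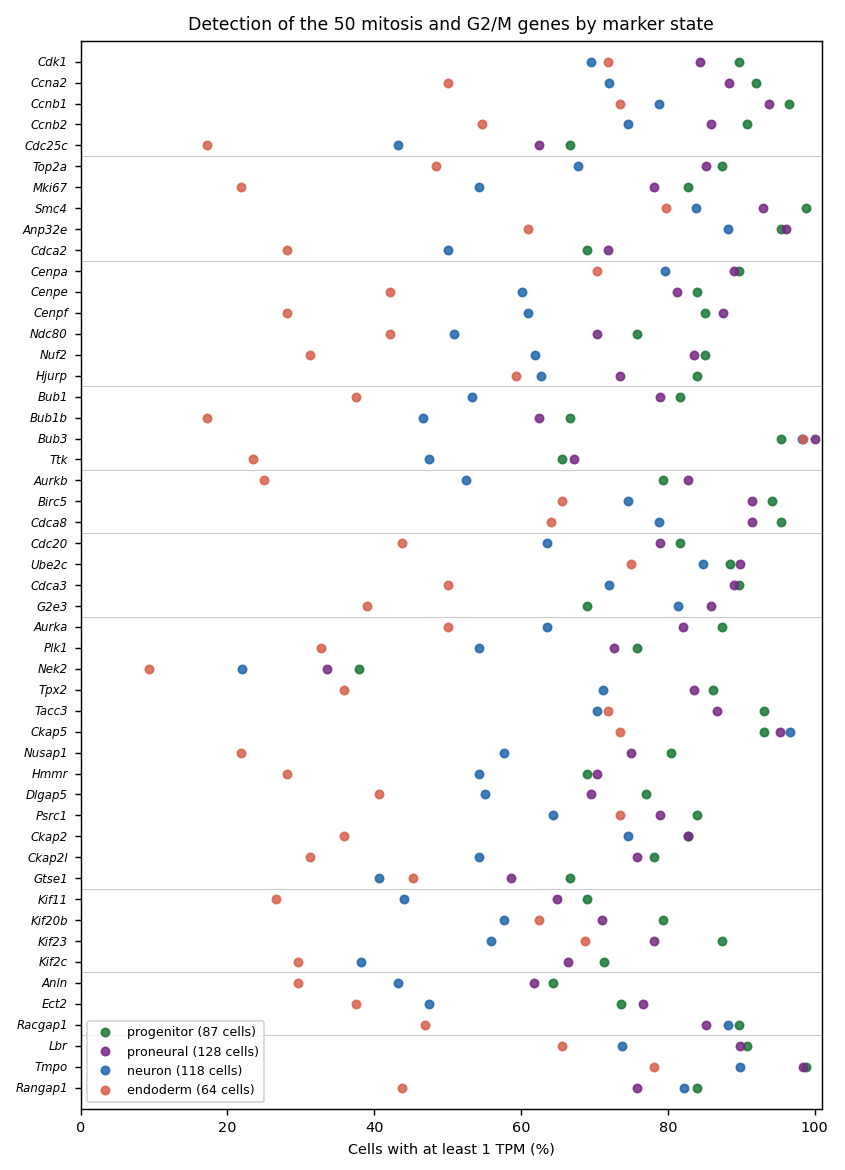
Share of cells with at least 1 TPM (horizontal axis, percent) for each of the 50 genes (vertical axis, ordered by role, grey lines between roles) in 4 marker states. Endoderm points lie furthest left for most genes, and Bub3 lies near 100% in all 4.

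Gene by gene, the median detected share over the 50 genes was 83.9% in progenitor, 81.6% in proneural, 63.1% in neuron and 43.8% in endoderm cells. Fewer than 50% of cells had the gene for 1 gene in progenitor cells (Nek2), 9 genes in neuron cells and 29 genes in endoderm cells. A difference in level was counted by its size alone, where mean TPM differed at least 2-fold, among genes that 10% or more of the cells of either state expressed. All 50 genes passed that detection filter in every comparison.

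Neuron against progenitor, 32 of the 50 genes had a mean at least 2-fold lower and 0 at least 2-fold higher, where 8.04% of 11359 genes were lower and 15.8% higher by the same rule. The median log2 fold over the 50 was -1.07, against 0.06 over all genes. The count was 40 in column set 1, 16 in set 2 and 38 in distinct cells, and the medians in the 2 sets were -1.40 and -0.91. Proneural against progenitor, 0 of the 50 were 2-fold lower and 0 higher, where 3.79% of 10893 genes were lower and 6.75% higher. The median log2 fold was -0.28, against -0.02 over all genes, and 43 of the 50 had a lower mean by some amount. Endoderm against progenitor, 45 were lower and 0 higher, where 25.8% of 11417 genes were lower and 21.5% higher, with a median of -1.79 against -0.20 over all genes. Neuron against proneural, 7 were lower and 0 higher, where 4.51% of 11369 genes were lower and 11.2% higher, with a median of -0.79. The count was 19 in column set 1, 5 in set 2, 14 in distinct cells and 18 with markers counted at 10 TPM. By a difference of at least 1 in mean log2(TPM + 1), which weighs cells with low values more, 37 were lower in neurons than in proneural cells, where 2.68% of genes were. These comparisons share the progenitor or the neuron cells and are not independent of each other.

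Cdk1 and its cyclins, which drive entry into mitosis, were lower in neuron cells for 5 of 5 genes. Ccnb1, the cyclin B1 that binds Cdk1, ran from 0 through a median of 381.1 to 2445 TPM in progenitor cells, from 0 through 350.9 to 2013 in proneural cells, from 0 through 109.8 to 1091 in neuron cells and from 0 through 26.6 to 2393 in endoderm cells. The ranges overlap, and the upper end in endoderm is as high as in progenitors while its median is far lower. Mean Ccnb1 was 541 TPM in progenitor and 237.2 TPM in neuron cells, a 2.28-fold lower mean. Cdk1 itself had means of 383.4, 343.4, 183.9 and 219.6 TPM in progenitor, proneural, neuron and endoderm cells, and was 2.09-fold lower in neurons and 1.75-fold lower in endoderm. Ccna2, the cyclin A2 of S phase and G2, had means of 214.2 TPM in progenitors and 44.1 TPM in endoderm. Cdc25c, a phosphatase that activates Cdk1, was detected in 66.7% of progenitor cells (55.7 to 76.4) and 17.2% of endoderm cells (8.9 to 28.7), with means of 44.6 and 4.45 TPM. Ccnb2, cyclin B2, had means of 284.7, 249.6, 136.99 and 94.1 TPM in the same order of states. In this group Cdk1 stood nearest to its progenitor level in endoderm.

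Of the 5 genes of chromosome structure and proliferation, 1 was 2-fold lower in neurons and 5 in endoderm. Mki67, the gene of the proliferation marker Ki-67, ran from 0 through a median of 14.9 to 83.7 TPM in progenitor cells, from 0 through 3.55 to 92.8 in neuron cells and from 0 through 0 to 39.2 in endoderm cells. It was detected in 82.8% of progenitor, 54.2% of neuron and 21.9% of endoderm cells, and its mean was 2.02-fold lower in neurons. Top2a, the topoisomerase that untangles chromosomes, had means of 143.7, 119.2, 75.4 and 32.5 TPM in progenitor, proneural, neuron and endoderm cells. Its fold in neurons, 1.91, was just under the bound, as was that of Smc4, a condensin subunit, at 1.92. Cdca2, which brings a phosphatase to chromosomes, was 1.89-fold lower in neurons and 3.97-fold lower in endoderm. Anp32e, a histone chaperone, was detected in 88.1% of neuron cells and 60.9% of endoderm cells, with means of 51.4 and 16.4 TPM.

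Of 6 centromere and kinetochore genes, 4 were 2-fold lower in neurons and 6 in endoderm. Hjurp, the chaperone that loads the centromeric histone, had means of 33.1 TPM in progenitors and 11.6 TPM in neurons, 2.86-fold lower. Cenpa, that histone, had means of 421.3, 351.3, 219.7 and 122.5 TPM in the 4 states, and its neuron fold was 2.76 in column set 1 and 1.38 in set 2. Cenpf, a large kinetochore protein, was detected in 85.1% of progenitor and 28.1% of endoderm cells and was 7.41-fold lower in endoderm. Cenpe, a kinetochore motor, was 2.09-fold lower in neurons, and Nuf2, of the complex that holds microtubules, 2.15-fold lower. Ndc80, its partner, was 1.95-fold lower in neurons and 2.64-fold lower in endoderm.

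Of the 4 spindle checkpoint genes, 3 were lower in neurons and 4 in endoderm. Bub1b, which codes for BubR1, was detected in 66.7% of progenitor, 46.6% of neuron and 17.2% of endoderm cells and was 9.83-fold lower in endoderm. Bub1 and Ttk, checkpoint kinases, were 2.61-fold and 2.10-fold lower in neurons. Bub3, their binding partner, did not follow them: it ran from 0 through a median of 299.6 to 1240 TPM in progenitor cells and from 0.4 through 217.1 to 1030 in neuron cells, with means of 315.4 and 264.9 TPM. Bub3 was detected in 98.3% of neuron and 98.4% of endoderm cells, and against progenitors its mean was past the bound in endoderm, 2.64-fold lower at 119.6 TPM.

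The 3 genes of the chromosomal passenger complex, which corrects wrong attachments and steers cell division, were lower in neurons and in endoderm. Birc5, which codes for survivin, had means of 588, 442.3, 257.1 and 244.9 TPM in progenitor, proneural, neuron and endoderm cells, and its median in endoderm was 8.97 TPM. Aurkb, the kinase of the complex, was 2.76-fold lower in neurons and 6.75-fold lower in endoderm. Cdca8, borealin, was 2.43-fold and 7.95-fold lower.

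Of the 4 genes of mitotic protein degradation, 3 were lower in neurons and 4 in endoderm. Ube2c, the ubiquitin-conjugating enzyme of the anaphase-promoting complex, was the highest of the 50 in progenitors: it ran from 0 through a median of 727 to 4936 TPM there, from 0 through 118.4 to 2399 in neurons and from 0 through 4.63 to 3816 in endoderm. Its mean was 1058 TPM in progenitors, 506 TPM in neurons and 220.9 TPM in endoderm. Cdc20, the activator of that complex, had means of 172.4, 142.2, 65.8 and 53.3 TPM in the 4 states. Cdca3, a trigger of mitotic entry, was 2.18-fold lower in neurons. G2e3, a ubiquitin ligase, was the exception, with means of 29.3 TPM in progenitor, 38.2 TPM in proneural and 22.7 TPM in neuron cells.

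Of 13 mitotic kinases and spindle proteins, 7 were lower in neurons and 11 in endoderm. Plk1, the polo-like kinase that acts throughout mitosis, ran from 0 through a median of 62.2 to 432.8 TPM in progenitor cells, from 0 through 2.71 to 319.6 in neuron cells and from 0 through 0 to 384.3 in endoderm cells. Aurka, the centrosome kinase, had means of 150.3, 130.1, 67.2 and 47.1 TPM in the 4 states. Psrc1, a spindle protein, was 2.36-fold lower in neurons but 1.54-fold lower in endoderm, where 73.4% of cells had it, and Gtse1, a microtubule-binding protein, was 2.19-fold and 1.75-fold lower. Nusap1, which binds microtubules near chromosomes, was 8.07-fold lower in endoderm and 1.93-fold lower in neurons. Ckap2 and Ckap2l, spindle proteins, were 6.69-fold and 7.79-fold lower in endoderm. Ckap5, a microtubule polymerase, had means of 132.3, 140.4 and 127.1 TPM in progenitor, proneural and neuron cells and 49.96 TPM in endoderm. Tpx2 and Tacc3, spindle assembly factors, were 1.95-fold and 2.16-fold lower in neurons, and Hmmr and Dlgap5, which also act on the spindle, 1.52-fold and 1.70-fold. Nek2, a centrosome kinase, was the least detected gene in progenitors, in 37.9% of progenitor and 9.38% of endoderm cells.

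Among 4 kinesin motors, 3 were lower in neurons, all but Kif11, and 3 in endoderm, all but Kif23. Kif23, of the central spindle, was 2.94-fold lower in neurons with a mean of 36.7 TPM, against 107.8 TPM in progenitors, but 65.7 TPM in endoderm, where 68.8% of cells had it (55.9 to 79.8). Kif11, which pushes spindle poles apart, was 1.52-fold lower in neurons and 4.86-fold lower in endoderm. Kif2c, which takes microtubules apart, was 2.84-fold and 4.71-fold lower, and Kif20b, of late division, 2.08-fold and 2.14-fold. Of 3 cytokinesis genes, Anln, the scaffold anillin, and Ect2, which switches on the contractile ring, were 2.76-fold and 2.32-fold lower in neurons. Racgap1, the partner of Kif23 in the central spindle, was not: its means were 113.7 TPM in progenitors and 96.1 TPM in neurons, and it was detected in 88.1% of neuron cells. Of the 3 nuclear envelope genes, Lbr was 2.14-fold lower in neurons, Tmpo 1.75-fold and Rangap1 1.29-fold. The genes not 2-fold lower in endoderm were Cdk1, Psrc1, Gtse1, Kif23 and Anln.

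**Figure D3:**
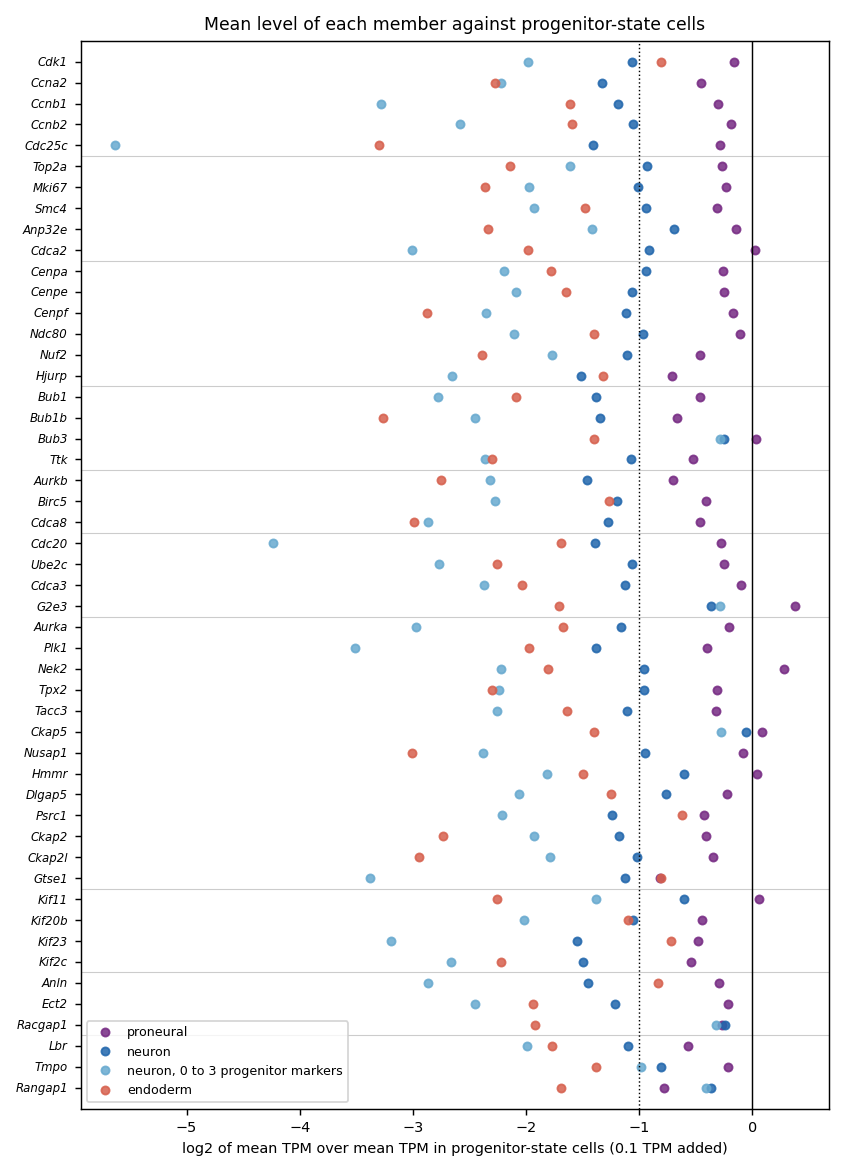
Log2 of the mean TPM in each state over the mean TPM in progenitor-state cells (0.1 TPM added to both, horizontal axis) for the 50 genes (vertical axis, by role); the dotted line marks a 2-fold lower mean and the solid line no difference. Proneural points lie between -0.81 and 0.38, and neurons with 0 to 3 progenitor markers lie furthest left for genes such as Cdc25c (-5.64) and Cdc20 (-4.23).

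Neuron cells were split by their progenitor markers, a split made after the data were seen. In the 41 neuron-state cells with 0 to 3 of 10 progenitor markers a median of 15 of the 50 genes was detected, and in the 77 with 4 or more a median of 44. At least 25 genes were detected in 8 of 41 cells (19.5%, interval 8.82 to 34.9) and in 61 of 77 (79.2%, 68.5 to 87.6). In this split the column sets gave like medians, 15 and 15 against 41.5 and 46. The cells with few progenitor markers also had fewer genes above 0, a median of 6007 against 7545. Housekeeping genes were lower in them as well. Over the 12, the median difference in mean log2(TPM + 1) was -0.74 against progenitors and -0.54 against the other 77 neurons. Over all genes that passed the detection filter it was -0.08 and -0.38, and over the 50 genes -3.30 and -2.40. The part of either in the result was not tested. The cut lies in a range, with 13 cells at 3 markers and 7 at 4.

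Against progenitor cells, 44 of the 50 genes were at least 2-fold lower in the 41 neurons with few progenitor markers and 0 were higher, where 18% of 11178 genes were lower and 19.9% higher; the median log2 fold was -2.23. Against the other 77 neurons 42 were lower, where 13.6% of 11456 genes were lower and 8.29% higher, and the median was -1.52. By column set, the count against progenitors was 45 in set 1 and 43 in set 2. The count against the other neurons was 42 in set 1 and 29 in set 2. Cdc25c was detected in 3 of 41 cells (7.32%, 1.54 to 19.9) against 48 of 77 (62.3%, 50.6 to 73.1). Cdc20 had a mean of 9.07 TPM in the 41 cells and 95.96 TPM in the 77. Ccnb1 had a mean of 55.6 TPM with a median of 1.05, against 333.9 TPM with a median of 215.7. Plk1 had means of 8.21 and 51.5 TPM, and Birc5 was detected in 39.02% against 93.5% of cells. Means in the 41 cells differed between column sets 1 and 2. They were 4.43 and 13.07 TPM for Cdc20, 25.2 and 81.9 TPM for Ccnb1 and 2.81 and 12.88 TPM for Plk1. Birc5 had 37.2 and 194.2 TPM, and Cdc25c went the other way, with 1.53 and 0.16 TPM.

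The 6 genes that were not 2-fold lower in the 41 cells against progenitors were Bub3, Ckap5, Racgap1, G2e3, Rangap1 and Tmpo. Bub3 had a mean of 259.3 TPM in the 41 cells and 267.8 TPM in the 77. Ckap5 had 109.5 and 136.4 TPM, Racgap1 90.8 and 98.9 TPM, and Rangap1 31.4 and 32.9 TPM. The means of the 2 groups of neurons lay close together for these genes, but Racgap1 and Rangap1 were each detected in 73.2% of the 41 cells, against 96.1% and 87.01% of the 77. The median of Racgap1 was 43.5 against 79.5 TPM, and its mean in the 41 cells was 113.8 TPM in column set 1 and 70.9 TPM in set 2. Tmpo lay at the bound, 1.98-fold lower than in progenitors.

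Along the count of neuron markers, in cells below the endoderm cut, the number of genes detected was lower at the highest counts, and where it began to be lower differed between the column sets. The median was 45 in the 49 cells with 0 to 2 neuron markers, 46 in cells with 3 to 5, 44 in 55 cells with 6 to 8, 41.5 in 44 cells with 9 or 10, 26 in 29 cells with 11 and 24 in 45 cells with all 12. In column set 1 the last 3 of these medians were 39, 24.5 and 18.5. In set 2 they were 45, 46 and 31, so in that set the cells with all 12 markers alone stood lower. Mean Ube2c was 1062 TPM in the first of these ranges and 299.1 TPM in the last, and mean Ccnb1 501 and 143.1 TPM. Mean Bub3 was 333.7 and 237.7 TPM, and mean Rangap1 34.1 and 32.2 TPM. These ranges were chosen after the data were seen.

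Within progenitor cells most of the genes varied together from cell to cell. Over the 87 progenitor cells, which share the library preparation and the total to which TPM is scaled, the Spearman correlation of a gene with the mean log2(TPM + 1) of the other 49 was 0.90 for Ube2c, 0.89 for Aurka, 0.87 for Ccnb1 and 0.86 for Nusap1. It was lowest for Anp32e (0.09), Tmpo (0.13), Nek2 (0.20) and Lbr (0.26). The closest pair was Ccnb1 and Ube2c, at 0.88. Bub3, whose mean in neurons lay near that in progenitors, followed the others among progenitors (0.82) and less so among the neuron cells (0.53).

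**Figure D4:**
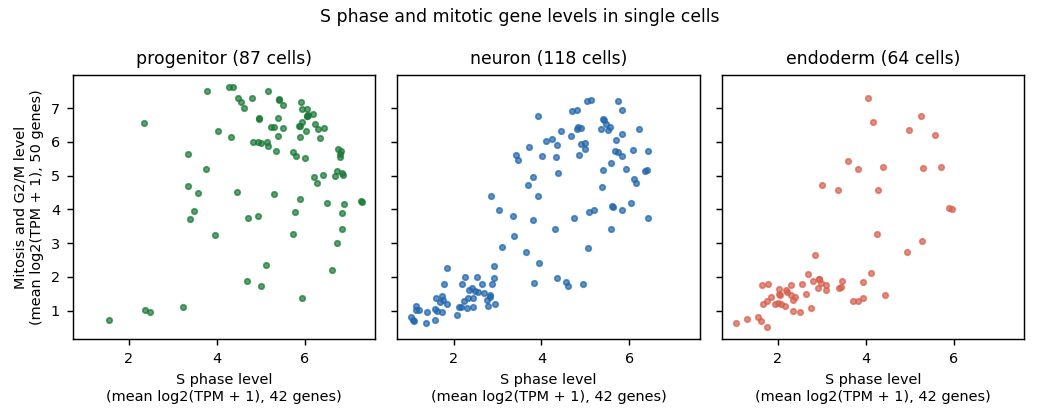
Mean log2(TPM + 1) of the 50 mitosis and G2/M genes (vertical axis) against that of 42 S phase genes (horizontal axis) in single cells of 3 states. Progenitor cells spread along the top and right with no common slope, while neuron and endoderm cells include a dense group that is low on both axes.

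The level of the 50 genes in a cell and that of 42 S phase genes had a rank correlation near 0 among progenitors and a positive one in the other states. Spearman's rho was -0.03 over 87 progenitor cells, 0.41 over proneural, 0.79 over neuron and 0.76 over 64 endoderm cells; the levels of both lists come from the same libraries. Both levels also followed the number of genes above 0: rho was 0.50 for the 50 genes and 0.52 for the S phase genes in neurons, 0.59 and 0.49 in endoderm, and 0.37 and 0.27 in progenitors. The level of the 50 genes followed that of the housekeeping genes in neurons as well (0.47), and the part of either in the correlation was not tested. Among progenitors Cenpa (-0.37) and Ccnb2 (-0.33) had the most negative correlations with the S phase level. The median level of the 50 genes, in mean log2(TPM + 1), was 5.73 in progenitor, 5.63 in proneural, 3.78 in neuron and 1.72 in endoderm cells, and that of the S phase genes 5.50, 5.12, 3.94 and 2.91.

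Other genes of division were described by the same rule. Of 69 further mitosis genes in the table, 68 passed the detection filter. Neuron against progenitor, 35 of the 68 were lower and 0 higher, where 8.04% of all genes were lower. In column set 1 50 were lower and 0 higher, and in set 2 23 were lower and 2 higher. Endoderm against progenitor, 48 were lower and 1 higher, where 25.8% of all genes were lower. That 1 was Wee1, the kinase that holds Cdk1 inactive, with means of 6.14 TPM in progenitors and 18.02 TPM in endoderm; it was named after its value was seen. Hmgb2, a chromatin protein, had means of 1453, 708 and 216.8 TPM in progenitor, neuron and endoderm cells. Cks1b and Cks2, small partners of Cdk kinases, had 936 and 938 TPM in progenitors and 542 and 425.7 TPM in neurons. Of the 42 S phase genes 30 were at least 2-fold lower in neurons, 35 in endoderm and 0 in proneural cells. In proneural cells all 42 had a lower mean by some amount, with a median log2 fold of -0.51.

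Genes that act on the G1 phase and on leaving the cycle differed in both directions. Of 20 such genes, 0 were lower and 5 higher in proneural against progenitor cells, where 6.75% of 10893 genes were higher. In neurons 6 were lower and 5 higher, where 8.04% of genes were lower and 15.8% higher, and in endoderm 11 were lower and 3 higher, where 25.8% were lower and 21.5% higher. Cdkn1c, an inhibitor of cyclin-dependent kinases, had a mean of 150.3 TPM in progenitor, 979 TPM in proneural and 921 TPM in neuron cells. Cdk4, the G1 kinase, had 1953, 2138 and 1834 TPM, and Ccnd2, a cyclin that binds it, 1140, 798 and 363.3 TPM. Cdkn1a, another inhibitor, was also higher than in progenitors, with means of 24.6, 73.6 and 133.3 TPM in the same 3 states. Further inhibitors did not share this pattern between progenitor and proneural cells. Cdkn2d had means of 47.03 and 52.2 TPM, Cdkn1b 2.90 and 2.18 TPM and Cdkn2c 3.47 and 3.05 TPM. In neurons Cdkn2d was higher, at 89.8 TPM, while Cdkn1b and Cdkn2c had 1.71 and 2.54 TPM.

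Outside these lists, the genes most like the 50 were found by rank over the 87 progenitor cells, among 7993 genes detected in at least 25% of them. Kpna2, a nuclear import receptor, came first with a Spearman correlation of 0.88 with the mean of the 50. Pimreg (0.79), Depdc1b (0.78), Tubb4b (0.78), Jpt1 (0.76), Gm10184 (0.73), Calm2 (0.72), H2afx (0.70) and Rtkn2 (0.66) were also among them. Kpna2 had means of 669, 557, 368.7 and 194.5 TPM in progenitor, proneural, neuron and endoderm cells. Jpt1 and Calm2, which codes for calmodulin, had higher means in neurons than in progenitors, with 916 and 1758 TPM in progenitors and 1464 and 2772 TPM in neurons.

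**Figure D5:**
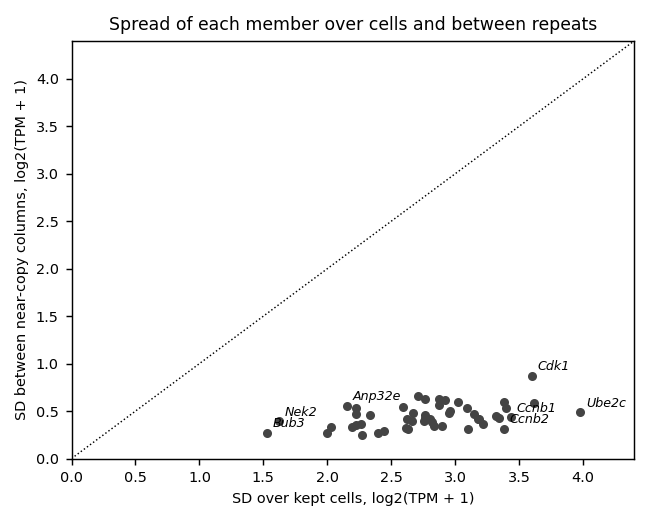
Spread of each of the 50 genes between near-copy columns (vertical axis, SD in log2(TPM + 1)) against its spread over kept cells (horizontal axis, same unit); the dotted line marks equality. All points lie far below the line, with Cdk1 the highest at 0.87.

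The near-copy columns show how far the genes differed between columns that were picked for being alike. They were chosen by the correlation of their whole profiles, so repeats with larger differences would not be among them, and the labels do not say what they repeat. Their differences may therefore understate the error of measurement. Over 55 pairs, the median SD between columns was 0.43 in log2(TPM + 1), against a median SD of 2.78 over all kept cells of all states. As a share of the spread over cells it ran from 9.24% for Ccnb2 to 25.8% for Anp32e. A gene was detected in only 1 column of a pair in 6.84% of 2750 cases. The level of the 50 genes differed by at most 0.25 within a pair, and 54 of 55 pairs fell in the same marker state, which the choice of pairs favours.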

How the data were processed

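Per the labels' protocols, cDNA was made with SMART-Seq V4 on a Fluidigm C1 and libraries with Nextera XT, without molecular identifiers. STAR, RSEM and the build mm10 are named in the submitters' processing notes, with no versions, and the annotation is not given in the sources used here. A single table was deposited by the authors, who state no unit; the deposited values were read as TPM made by the authors with RSEM, since columns sum to 54.2% to 95.1% of the full TPM total. The depth is unknown, and no count test was possible.

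Of 464 columns (228 and 236 in the 2 sets), 6 had under 2000 genes above 0 or over 20% mitochondrial transcripts; 458 were kept (224 and 234), or 403 distinct cells. The states held 87 progenitor, 128 proneural, 118 neuron, 64 endoderm, 56 mixed and 5 unassigned cells, with 137 cells within 1 marker of the proneural cut. A marker was present at 5 TPM. The endoderm cut was 5 of 10 markers, neuron 9 of 12, proneural 4 of 10 and progenitor 4 of 10, set from marker counts alone; a cell past several neural cuts went to neuron, then proneural, then progenitor. Log2 folds add 0.1 TPM to both means, and per-cell levels are means of log2(TPM + 1). Near copies were pairs with r of 0.93 or more.

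The members and lists were chosen with earlier results of these data known. Named were all 50 members, the 3 genes of highest mean TPM in the other mitosis and cell cycle exit lists, and the 10 genes most like the members, of which 1 is not reported here. Of 72 further mitosis genes listed, 3 were not found under the names used. Alternatives covered the detection bound, pseudocount, marker bound, cell filter, column sets, distinct cells and scaling. Scripts used Python 3.11.15, numpy 2.4.6, pandas 2.3.3, scipy 1.17.1 and matplotlib 3.10.9, and were tested on simulated data.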

Additional observations from a re-analysis of the deposited data

How the results depend on the processing

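Each result was recomputed under each alternative that applied to it. Values stayed within their bounds except for 13 that moved, and 0 reversed. Counts and median folds had a fixed ratio as their bound. For per-cell values the bound was the SD over the cells of the state, which is wide. In neurons it was 15.4 genes and 2.16 in level. Neuron medians of 26 genes in column set 1 and 40 in set 2, against 37, therefore counted as within it. So did neuron levels of 2.75 and 4.38, against 3.78. Neuron against progenitor, the count of lower genes was 16 in column set 2 alone, and the median was -1.72 as a difference of mean log2(TPM + 1) and -2.23 in neurons with 0 to 3 progenitor markers. Proneural against progenitor, the count was 2 in column set 1 alone. Endoderm against progenitor, the median was -2.70 as a difference of mean log2(TPM + 1). Neuron against proneural, where many genes lie near 2-fold, the count of 7 became 14 in distinct cells, 19 in column set 1 and 18 with markers at 10 TPM. It was 37 as a difference of mean log2(TPM + 1) and 44 in neurons with few progenitor markers, whose median was -1.86. The share of all genes lower was not computed for these neurons against proneural cells, so the 44 has no background beside it. Against progenitors, 18% of all genes were lower in these neurons. In those neurons the genes detected per cell were 15 and the level 1.33. The cause of these moves was not tested, except that the split of neurons changes which cells are compared. No paired analysis was possible because all cells belong to 1 group. Limits are the unknown depth, the single sample, states cut from marker counts, and doublets that were not called.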

Other observations

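Mixed cells, which passed the endoderm cut and a neural cut, had a median of 41.5 of the 50 genes detected and a level of 4.16, between those of the neuron and proneural states, with the highest median number of genes above 0 (7991.5). At least 25 genes were detected in 82.1% of them (69.6 to 91.1). The 5 cells that passed no cut had a median of 19 genes detected.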
